A study of Mus musculus with 42 samples.

Results

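Protocadherins are cadherin-related adhesion proteins of the cell surface. The genes described here are the 67 protein-coding genes on mouse autosomes whose GENCODE vM21 symbol starts with Pcdh, out of 20807 autosomal protein-coding genes. Of these, 57 lie in clusters on chromosome 18, namely 14 in the Pcdha cluster, 22 in the Pcdhb cluster and 21 in the Pcdhg cluster. The other 10 are non-clustered: Pcdh7 on chromosome 5, Pcdh10 and Pcdh18 on chromosome 3, Pcdh15 on chromosome 10, Pcdh8, Pcdh9, Pcdh17 and Pcdh20 on chromosome 14, and Pcdh1 and Pcdh12 on chromosome 18. A gene was placed in a lamina-associated domain (LAD) of a library when its start site, the 5′ end of the annotated gene, lay inside an interval called in that library. A region was called gene-poor when no more than 16 other protein-coding start sites lay within 1 Mb on either side, which is the 25th percentile of all genes. By that measure 8 of the 10 non-clustered genes were in gene-poor regions, from 0 start sites around Pcdh7, Pcdh9, Pcdh10, Pcdh17 and Pcdh20 to 12 around Pcdh8. The nearest value above the limit among the members was the 58 start sites around Pcdh12.

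LADs came from chromatin immunoprecipitation sequencing of lamin B1 (LMNB1) in liver of C57Bl/6 wild-type mice, with 14 libraries from 2 mice at each of 7 time points. Non-synchronized (NS) mice were killed on the day before food was withdrawn, and the other mice were fasted for 24 h, refed at circadian time CT0 and killed at CT0, CT6, CT12, CT18, CT24 or CT30. All mice lived in a light and dark cycle of 12 h each. The labels give the mice as female in some fields and as male in others, and they do not state their age. They list a single input library, of chromatin without immunoprecipitation, for each time point. Both mice of a time point may therefore share it, and its part in their agreement was not tested. A library held 86 to 341 LADs that covered 335 to 663 Mb, with a calling bin of 4 to 61 kb, and the read depth behind a LAD is unknown because the intervals carry no count or score. The intervals hold no expression values, so the tissue could not be checked against marker genes.

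Clustered protocadherin genes work as sets of alternative variable exons, each with its own promoter, of which a neuron uses a few to give its surface an identity code. In the Pcdha and Pcdhg clusters the variable exons are spliced to shared constant exons, whereas Pcdhb genes are single-exon genes, and the C-type genes at the far end of the Pcdha and Pcdhg clusters are used more uniformly than the others. Non-clustered protocadherins stand alone, often in large regions with few other genes, and act in cell sorting, axon growth and, for Pcdh15, hair cells of the inner ear. These genes are known mainly from the nervous system. LADs are large, mostly silent stretches of chromatin that contact the nuclear lamina.

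Of the 10 non-clustered genes, 6 had their start site in a LAD in at least 7 of 14 libraries. This held for 8.2% of all genes and 7.91% of all genes in gene-poor regions. The latter are not a matched set, with a median of 11 other start sites within 1 Mb, beside 0 for the 8 non-clustered genes there. No share was computed for genes with as few start sites around them. None of the 57 clustered genes reached 7 libraries. Pcdh7, Pcdh10 and Pcdh17 lay in a LAD in all 14 libraries, which held for 0.875% of all genes. Pcdh9 followed with 11 libraries, Pcdh15 and Pcdh20 with 8 each, Pcdh18 with 3, Pcdh8 with 1, and Pcdh1 and Pcdh12 with 0. Neighbours in this order differed by 1 to 5 libraries or not at all, and no test was made of the order. At least 1 library placed 8 of the 10 non-clustered genes and 36 of the 57 clustered genes in a LAD, beside 17.1% of all genes and 22.6% of genes in gene-poor regions.

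**Figure D1:**
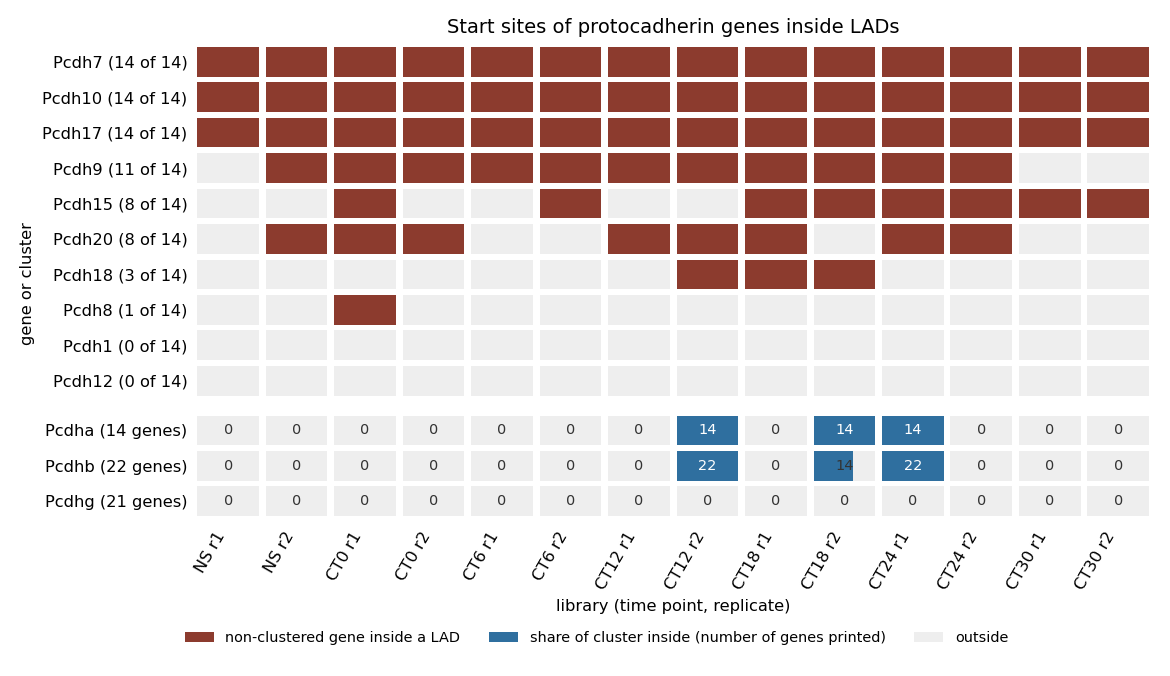
LAD state of protocadherin start sites. Columns are the 14 libraries and rows are the 10 non-clustered genes, filled where the start site lay inside a LAD, and the 3 clusters, filled by the share of start sites inside with the number of genes printed. Pcdh7, Pcdh10 and Pcdh17 are filled in all 14 libraries, and the clusters are filled only in CT12 replicate 2, CT18 replicate 2 and CT24 replicate 1, never for Pcdhg.

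Per library, 3 to 7 of the 8 non-clustered genes in gene-poor regions lay in LADs, with a median of 5. The lowest count, 3, was in NS replicate 1, beside 4.18% of all genes, and the highest, 7, in CT0 replicate 1 and CT18 replicate 1, beside 5.54% and 9.79%. As a share this was 37.5% at the lowest, 62.5% at the median and 87.5% at the highest. The median share was 75% in the 9 libraries with bins under 20 kb and 50% in the 5 with bins of 20 kb or over. The part of bin size was not tested. The clustered genes stood at 0% in 11 libraries and at 63.2% in CT12 replicate 2, 49.1% in CT18 replicate 2 and 63.2% in CT24 replicate 1, beside 9.85%, 10.8% and 9.48% of all genes. The difference between these shares was positive in all 14 libraries, from 11.8 to 87.5 percentage points with a median of 56.2. For comparison, 4.18% to 10.8% of all genes and 5.51% to 13.9% of genes in gene-poor regions lay in LADs in a library. The 57 clustered genes share 1 locus and many share exons, and the 4 genes on chromosome 14 can share 1 LAD, so the genes are not independent and the difference is given without a test. Its median fell from 56.2 to 45 percentage points when Pcdh1 and Pcdh12 were counted with the other non-clustered genes.

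**Figure D2:**
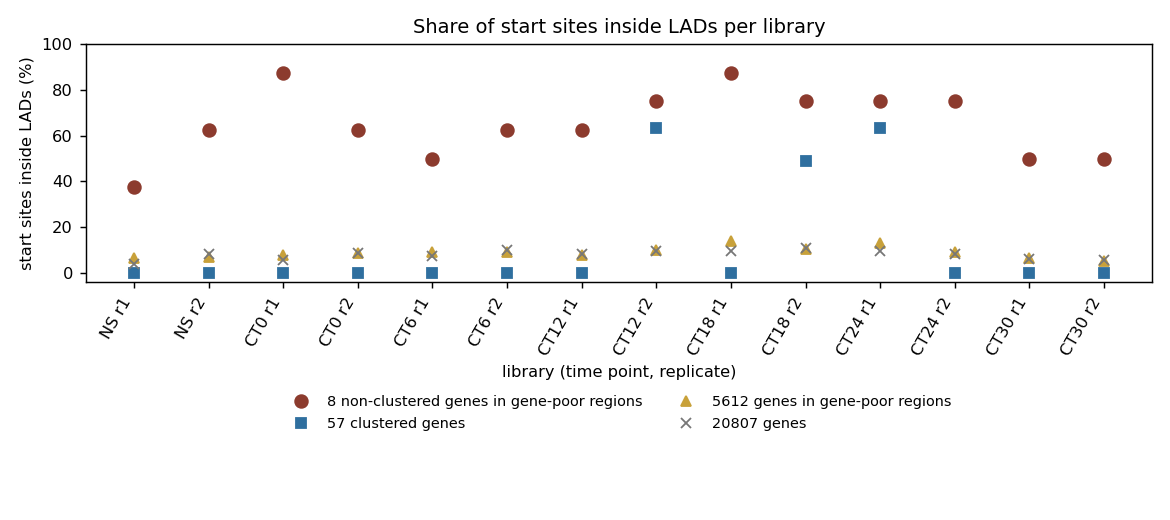
Share of start sites inside LADs. The vertical axis gives the percent of start sites inside LADs in each of the 14 libraries for the 8 non-clustered genes in gene-poor regions (circles), the 57 clustered genes (squares), all 5612 genes in gene-poor regions (triangles) and all 20807 genes (crosses). The circles lie between 37.5% and 87.5%, above the other symbols in every library.

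Among the genes that were always inside, Pcdh7 stood 3.72 Mb from the nearest other protein-coding start site, that of Stim2. Its LAD was 7.53 to 9.28 Mb long, and the start site was 2.67 to 3.51 Mb from the nearest LAD border. The stretch covered in all 14 libraries around it spanned 7.29 Mb, at chr5:55050001-62342000, and also held G6pd2, whereas Stim2 was in a LAD in 0 libraries. Pcdh10, an adhesion protein with a part in axon growth, lay in a LAD of 2.49 to 6.98 Mb and 1.01 to 2.46 Mb inside its border. Its common stretch was chr3:44368001-46859000, and its right-hand neighbour Pabpc4l was likewise inside in all 14 libraries, while D3Ertd751e on the left was inside in 0. Pcdh17, a synaptic adhesion protein, lay in a LAD of 4.28 to 19.0 Mb, and its common stretch was chr14:82707001-84912000, or 2.21 Mb. The gene bodies of these 3 genes were covered over 100% of their length in every library.

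The promoters of the 8 non-clustered genes in gene-poor regions were found in RefSeq for GRCm38.p6, as 250 bases before to 50 bases after the start. They are compared because start sites in the same LAD state differed widely in CpG content. The 4 shown are Pcdh10 and Pcdh17, always in a LAD, Pcdh20, inside in 8 libraries, and Pcdh18, inside in 3, at chr3:45378148-45378447 (plus strand), chr14:84443313-84443612 (plus strand), chr14:88471347-88471646 (minus strand) and chr3:49757267-49757566 (minus strand). CpG dinucleotides are in capitals.
Pcdh10: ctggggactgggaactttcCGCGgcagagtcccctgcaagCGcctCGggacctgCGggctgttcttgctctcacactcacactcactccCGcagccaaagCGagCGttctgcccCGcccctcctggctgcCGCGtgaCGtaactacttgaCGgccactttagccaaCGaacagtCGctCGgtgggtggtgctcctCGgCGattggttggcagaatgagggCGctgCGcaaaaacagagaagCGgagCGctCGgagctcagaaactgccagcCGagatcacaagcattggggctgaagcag
Pcdh17: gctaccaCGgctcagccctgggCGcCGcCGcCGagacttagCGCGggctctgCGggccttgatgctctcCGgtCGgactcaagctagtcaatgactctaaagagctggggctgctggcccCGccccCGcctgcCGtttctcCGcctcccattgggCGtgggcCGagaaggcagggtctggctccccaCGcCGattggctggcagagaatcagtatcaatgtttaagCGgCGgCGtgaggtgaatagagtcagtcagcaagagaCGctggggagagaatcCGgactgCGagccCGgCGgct
Pcdh20: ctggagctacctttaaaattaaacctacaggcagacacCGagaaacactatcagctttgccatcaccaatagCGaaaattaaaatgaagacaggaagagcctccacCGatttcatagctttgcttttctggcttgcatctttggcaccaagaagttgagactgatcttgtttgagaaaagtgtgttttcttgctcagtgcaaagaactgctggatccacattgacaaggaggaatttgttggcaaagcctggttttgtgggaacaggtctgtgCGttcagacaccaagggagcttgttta
Pcdh18: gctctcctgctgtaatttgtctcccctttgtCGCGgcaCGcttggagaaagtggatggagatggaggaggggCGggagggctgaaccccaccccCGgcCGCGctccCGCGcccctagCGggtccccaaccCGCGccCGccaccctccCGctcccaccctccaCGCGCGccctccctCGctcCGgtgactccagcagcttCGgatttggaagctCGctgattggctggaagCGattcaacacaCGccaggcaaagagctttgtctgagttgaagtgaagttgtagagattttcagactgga
Pcdh10 held 24 CpG and Pcdh17 held 26, Pcdh7, also always inside, held 11, and Pcdh18 held 23, so the counts of always inside and mostly outside genes overlapped. Pcdh20 held 4 CpG, the lowest of the 8 promoters, whose median was 16 beside 15 over 15686 promoters of autosomal protein-coding genes. Searched on both strands, CCAAT was present in 7 of the 8 promoters and in 38.4% of all promoters of this length. TATAAA was present in the promoters of Pcdh8 and of Pcdh15, the latter at its RefSeq start 723 kb downstream of the annotated gene start, and in 12.9% of all. CACGTG, the canonical E-box of circadian factors, was present in 0 of the 8 and in 8.1% of all, and these letters being out of this window says nothing of factor binding.

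The Pcdh8, Pcdh17, Pcdh20 and Pcdh9 genes follow each other over chromosome 14, with 0 other protein-coding start sites between Pcdh20 and Pcdh9. A single LAD of 15.9 to 19.0 Mb held Pcdh17, Pcdh20 and Pcdh9 in 8 libraries. Where Pcdh20 was outside in CT6, both mice had a break in this LAD, of 2.84 Mb in replicate 1 and 2.44 Mb in replicate 2, and the right-hand LAD began 78.6 kb and 67.6 kb beyond its start site. CT18 replicate 2 had a break of 1.72 Mb, with a LAD ending 217 kb from the Pcdh20 start site on the other side. In CT30 the break around Pcdh20 was 4.22 Mb in replicate 1 and 3.86 Mb in replicate 2, so Pcdh20 was outside LADs in both mice of CT6 and CT30 and inside in both mice of CT0, CT12 and CT24. NS and CT18 were split, with NS replicate 1 and CT18 replicate 2 outside.

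Pcdh9, a long brain-expressed gene of 877 kb, was inside in both mice of CT0, CT6, CT12, CT18 and CT24 and outside in both mice of CT30. NS was split, with replicate 1 outside. In the 11 libraries where Pcdh9 was inside, its LAD was 8.69 to 19.0 Mb long and the start site was at least 3.91 Mb from a border. In CT30 the nearest LAD ended 1.14 Mb and 1.52 Mb from it, and in NS replicate 1 it ended 8.98 Mb away. The 3 libraries without Pcdh9 in a LAD were those with the lowest LAD coverage of the genome, 335 Mb in NS replicate 1, 405 Mb in CT30 replicate 1 and 392 Mb in CT30 replicate 2. CT0 replicate 1, with 424 Mb, had Pcdh9 inside. The bins of the 3 libraries were also coarse, at 61, 31 and 46 kb, and Pcdh9 was inside in 100% of the 9 libraries with bins under 20 kb. CT0 replicate 1 and CT6 replicate 1, with bins of 47 and 35 kb, had it inside, and the part of coverage and bin size in this result was not tested. The nearest gene to the right of Pcdh9, 4921530L21Rik, was inside in 11 libraries, and Tdrd3 between Pcdh17 and Pcdh20 was inside in 8.

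Pcdh8, a short activity-linked gene of 4.54 kb at the left edge of this stretch, was inside only in CT0 replicate 1. There it lay 59.3 kb within the border of a LAD of 19.0 Mb that also held the other 3 genes. In the other 13 libraries the nearest LAD was 173 kb to 2.94 Mb away, with a median of 761 kb. Its neighbours Cnmd and Olfm4 were inside in 0 and 2 libraries. The bin size of CT0 replicate 1 was 47 kb, so the border is known there to about this distance.

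**Figure D3:**
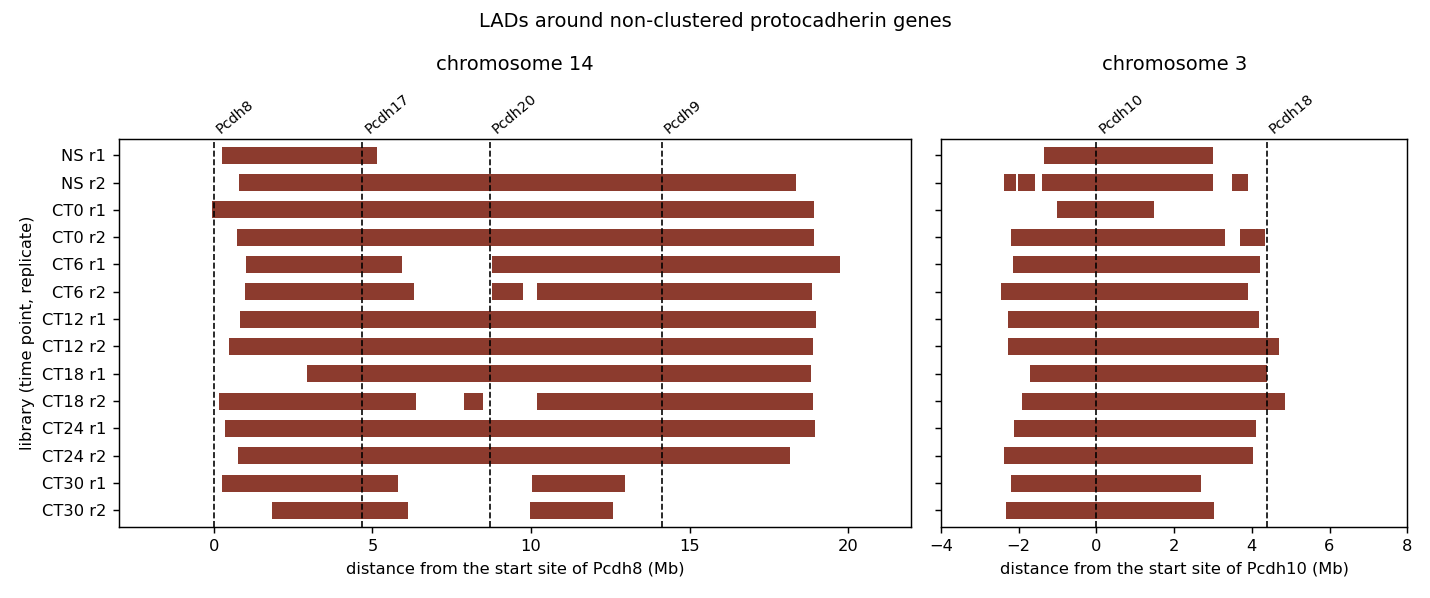
LADs around non-clustered protocadherin genes. Bars are the LADs of each of the 14 libraries against the distance in Mb from the start site of Pcdh8 on chromosome 14 (left) or of Pcdh10 on chromosome 3 (right), and dashed lines are start sites. The breaks around Pcdh20 in CT6 and CT30, the absence of a LAD at Pcdh9 in CT30, and the right-hand border near Pcdh18 can be seen.

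Pcdh18, whose protein binds the adaptor Dab1, lies 4.38 Mb from Pcdh10, with Pabpc4l between them, and stood at the right-hand border of the LAD that holds Pcdh10. It was inside in CT12 replicate 2, CT18 replicate 1 and CT18 replicate 2, where the LAD reached 333, 22.7 and 481 kb past its start site and was 6.1 to 6.98 Mb long. CT18 was the only time point with both mice inside. In the 11 libraries where it was outside, a LAD ended 49.3 kb to 2.9 Mb short of the start site. CT18 replicate 1 had a bin size of 19 kb, close to the 22.7 kb by which the start site was inside. Its right-hand neighbour Slc7a11, a cystine transporter gene, was in a LAD in 0 libraries.

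Pcdh15, a gene of 1550 kb whose protein forms the tip links of hair cells, was inside in both mice of CT18, CT24 and CT30, and in CT0 replicate 1 and CT6 replicate 2. Its LADs there were 1.78 to 3.38 Mb long. In CT0 replicate 2, CT12 replicate 1, CT12 replicate 2 and NS replicate 2 a LAD began 90.7 to 221 kb downstream of the start site, so that 55.5% to 85.8% of the gene body was covered although the start site was outside. NS replicate 1 and CT6 replicate 1 had 0% of the gene body in a LAD. At least 50% of the body was covered in 11 libraries. The annotated gene start of Pcdh15 carries no protein-coding transcript. Its protein-coding transcripts had 5 distinct start positions, of which 4, at 723 to 848 kb downstream, were inside in 11 libraries. The last, 1257 kb downstream, was inside in 5. In CT24 replicate 2 all 5 positions were outside, although the annotated gene start was inside. For the other non-clustered genes every annotated protein-coding transcript start gave the same number of libraries as the gene start. Zwint, the nearest gene to its left, was inside in 8 libraries, and Gnaz on the right in 0.

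Pcdh1 and Pcdh12, which lie near the clusters on chromosome 18, were outside in all 14 libraries, with 0% of their bodies covered. Pcdh1 was 592 kb to 8.87 Mb and Pcdh12, an endothelial protocadherin, 664 kb to 8.94 Mb from the nearest LAD. Their neighbours Arap3, Dele1 and Rnf14 were also in 0 libraries.

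The Pcdha, Pcdhb and Pcdhg clusters span 912 kb, at chr18:36930184-37841873, and 11 libraries had no LAD over any part of it. In these libraries the nearest LAD was 2.44 to 7.59 Mb away. The other 3 libraries each had a single LAD that began left of Pcdha1, the first gene of the Pcdha cluster, by 100, 120 and 68.2 kb in CT12 replicate 2, CT18 replicate 2 and CT24 replicate 1. All 14 Pcdha genes were therefore inside in these 3 libraries, from Pcdha1 to the C-type genes Pcdhac1 and Pcdhac2. Of the 22 Pcdhb genes, Pcdhb1 to Pcdhb14 were inside in 3 libraries and Pcdhb15 to Pcdhb22 in 2. The step lay at Pcdhb15, because the LAD of CT18 replicate 2 ended 4.34 kb past the start site of Pcdhb14 and 21.5 kb before that of Pcdhb15.

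The Pcdhg genes were outside in all 14 libraries, from Pcdhga1 to the C-type genes Pcdhgc3, Pcdhgc4 and Pcdhgc5. The LADs of CT12 replicate 2, CT18 replicate 2 and CT24 replicate 1 ended 41.8, 210 and 142 kb before Pcdhga1. In CT24 replicate 1 the LAD ended 2.13 kb past the start site of Pcdhb22, the last Pcdhb gene, with a bin size of 14 kb. Slc25a2 and Taf7, which lie between the Pcdhb and Pcdhg clusters, and the outer neighbours Zmat2 and Diaph1 were in a LAD in 0 libraries. The nearest protein-coding start site left of Pcdhb1 outside the Pcdh symbols, that of Gm37388 within the Pcdha cluster, was inside in the same 3 libraries.

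**Figure D4:**
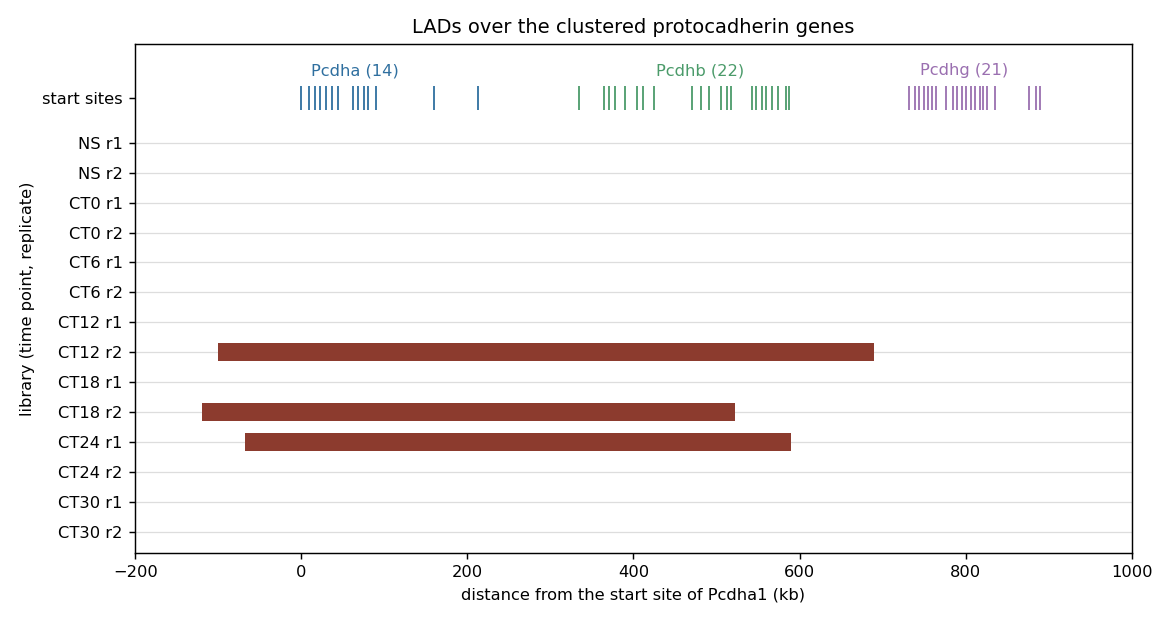
LADs over the clustered protocadherin genes. Bars are the LADs of each of the 14 libraries against the distance in kb from the start site of Pcdha1, and ticks at the top are the start sites of the 14 Pcdha, 22 Pcdhb and 21 Pcdhg genes. The bars of CT12 replicate 2, CT18 replicate 2 and CT24 replicate 1 end left of the Pcdhg start sites, and the other 11 libraries have no bar.

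No time point had a clustered gene inside in both mice. The LADs of CT12 replicate 2, CT18 replicate 2 and CT24 replicate 1 over the clusters were 790, 642 and 658 kb long, and with LADs under 1 Mb left out 0 clustered genes lay in a LAD in any library. Of the LADs of the same library, 52 of 243, 75 of 341 and 4 of 184 were no longer than these. These libraries covered 586, 663 and 631 Mb of the genome, which put them among the 4 with the highest coverage, and the part of coverage in this result was not tested.

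The surroundings of the clusters and of the non-clustered genes were compared. The number of start sites within 1 Mb had defined the gene-poor group, so a low number there was set by that choice. A clustered gene had 74 to 91 other protein-coding start sites within 1 Mb, most of them other protocadherins. With protocadherins left out, the medians were 32 for Pcdha and Pcdhb and 25 for Pcdhg, beside 30 for all genes. The same count fell to 15 for both Pcdh1 and Pcdh12, which would then be within the limit of 16, as would the C-type genes Pcdhgc3, Pcdhgc4 and Pcdhgc5, with 16 each and in a LAD in 0 libraries. GC content of the 100 kb around the start site was 36.0% to 45.1% for the 8 non-clustered genes in gene-poor regions, with a median of 38.1%, and 49.6% and 46.3% for Pcdh1 and Pcdh12. The median was 41.1% for Pcdha, 40.5% for Pcdhb and 44.3% for Pcdhg, beside 44.5% for all genes and 37.6% for the 182 genes that were in a LAD in all 14 libraries. Pcdh8, inside in 1 library, had the highest GC content of the 8 genes in gene-poor regions, and Pcdh9 the lowest.

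**Figure D5:**
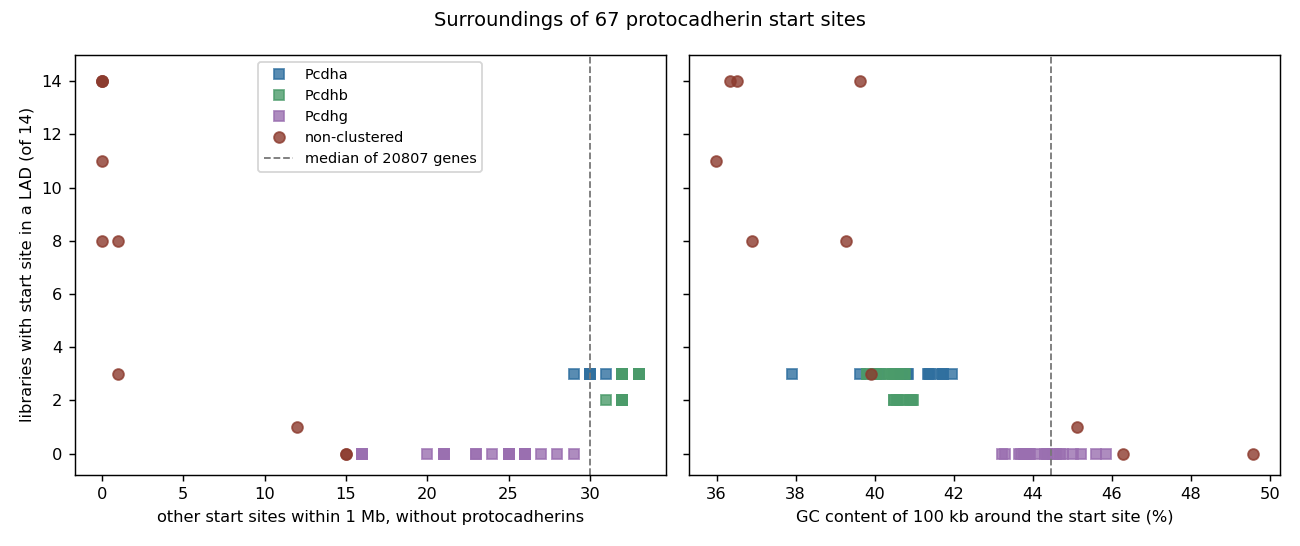
Surroundings of protocadherin start sites. The vertical axes give the number of libraries, of 14, in which the start site lay in a LAD, against the number of start sites within 1 Mb without protocadherins (left) and the GC content in percent of 100 kb (right) for the 67 genes, with the median of all 20807 genes as a dashed line. Genes in 8 or more libraries have 0 or 1 start sites around them and a GC content under 40%. Pcdh18, in 3 libraries, also has 1 start site and 39.9%. Pcdhac1, Pcdhac2, Pcdhb3 and Pcdhb4, in 3 libraries each, are under 40% as well.

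Change over the cycle was tested for all genes as the percent of the 1 Mb around the start site that LADs covered. The F ratio compared the 6 circadian times from CT0 to CT30. The exact permutation test ran over 10395 divisions of the 12 libraries into pairs. Of 5981 genes with varying coverage, 0 passed after Benjamini-Hochberg adjustment, and the smallest adjusted p was 0.345 in this exact permutation test, with 0 genes also in each alternative that was run. With 10395 divisions and 5981 genes, a gene at the smallest possible p could pass only together with others of similarly low p. A count of 0 therefore does not show that coverage was constant. Unadjusted, 352 genes, or 5.89%, were below 0.05. Of the 67 protocadherin genes 62 could be tested and 1, Pcdh20, was below 0.05 unadjusted. Its coverage was 100% in both mice of CT0, CT12 and CT24, 42.1% and 43.2% in CT6, 100% and 28.3% in CT18 and 0% in both mice of CT30, with F = 7.79, exact permutation p = 0.0303 and adjusted p = 0.721. The unadjusted exact permutation p was above 0.05 with the replicate block (0.0667) and with 0.5 Mb around the start site (0.0707). The same exact permutation p was above 0.05 with the signed distance to a border (0.062), with LADs of at least 1 Mb (0.152) and with NS added (0.124). It was also above 0.05 without any 1 of the CT6 or CT30 libraries. Without any 1 of the CT0, CT12, CT18 or CT24 libraries it stayed below 0.05, and it was lowest without a CT18 library, where the mice were split. Each run without a library leaves 1 mouse at that time point.

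Pcdh9 had 100% coverage in both mice of CT0 to CT24 and 0% in both mice of CT30. Mice of a time point therefore never differed, the F ratio was infinite, and the exact permutation p was 0.0909 with adjusted p = 0.73. With 10 libraries at 100% and 2 at 0%, 0.0909 is the smallest p that this exact permutation test can give, so Pcdh9 could not have passed. For Pcdh18, coverage was highest in CT18, at 52.3% and 98.1%, and was 0% in both CT30 mice, with exact permutation p = 0.158. Pcdh15 was at 100% in both mice of CT18, CT24 and CT30 and at 100% and 32.7% in CT0. It was at 0% and 100% in CT6 and at 27.9% and 40.9% in CT12, with exact permutation p = 0.434. Its window lay around the annotated gene start, which carries no protein-coding transcript. For Pcdh8 and the 57 clustered genes the exact permutation p was 1. Pcdh7, Pcdh10 and Pcdh17 were covered over 100% and Pcdh1 and Pcdh12 over 0% in all 12 libraries, so this measure could not test them. With the signed log2 distance to the nearest LAD border in its place, all 67 genes could be tested. The distance of Pcdh17, negative inside a LAD, was -4.73 to -3.86 Mb in the mice of CT0, CT12 and CT24 and -1.74 to -1.15 Mb in those of CT6, CT18 and CT30. The CT18 mice had similar distances to unlike borders. In replicate 1 the nearest was the left border, 1.74 Mb away in a LAD of 15.9 Mb. In replicate 2 it was the right border, 1.7 Mb away in a LAD of 6.2 Mb. With this distance Pcdh17 had an exact permutation p of 0.00645, Pcdh10 of 0.23, Pcdh7 of 0.621, Pcdh1 of 0.484 and Pcdh12 of 0.475. The part of the unlike CT18 borders in the p of Pcdh17 was not tested. Over all genes 0 passed after adjustment in that setting, with a smallest adjusted p of 0.286.

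Between single time points, a gene was counted as gained or lost when its start site changed state in both mice. With 2 mice against 2 an exact permutation test cannot go below 0.33, so these are counts without a test. From NS to CT0 0 protocadherin genes were gained and 0 lost, beside 0.346% and 0.38% of all genes. From CT0 to CT12 the counts were again 0 and 0, beside 0.346% and 0.12% of all genes. From CT12 to CT30 Pcdh15 was gained, beside 0.384% of all genes, and Pcdh9 and Pcdh20 were lost, beside 2.36%. The comparisons share the CT0 and the CT12 mice. Pcdh15 was not counted as gained when at least 50% of the gene body had to be covered. At its protein-coding transcript starts 723 to 848 kb downstream, it was already inside in both mice of CT12. The CT30 libraries covered 405 and 392 Mb with bins of 31 and 46 kb. Those of CT12 covered 553 and 586 Mb with bins of 5 and 10 kb, and the part of this in the losses was not tested.

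Genes that work with protocadherins were looked at in the same way, beside 82.9% of all genes that were in a LAD in 0 libraries. Of 13 genes that regulate clustered protocadherins, among them the architectural factor Ctcf and the silencer Smchd1, 13 were in 0 libraries. Of 15 related large cadherins of the Fat, Dchs, Celsr and Cdhr families, 14 were in 0 libraries and Fat3 was in 5. Of 12 intracellular partners of protocadherins, 11 were in 0 libraries and Cyfip1, of the WAVE complex, was in 4. None of these genes reached 7 libraries, beside 8.2% of all genes, and no test was made of the lists.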

How the data were processed

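LMNB1 ChIP-seq libraries of 14 livers were used, and per the labels the reads were mapped to mm10. The authors removed duplicates with Picard, mapped reads with Bowtie2 (version 2.25.0 in the submitters' processing notes), thinned ChIP and input reads to equal depth on each chromosome and called LADs per mouse with EDD. The deposited values are the start and end of each LAD, with no other measurement such as a score, so depth, counting intervals and score filters could not be had. Inputs and RNA-seq were not used here.

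Start sites and gene bodies came from GENCODE vM21 (GRCm38.p6), with Python 3.11.15, NumPy 2.4.6 and pandas 2.3.3. Bin size was read from the LAD starts. The window test used an exact permutation over divisions of the 12 CT libraries and Benjamini-Hochberg adjustment over all tested genes, and it was tested on simulated data. Replicates were separate mice, with numbers from the titles. GENCODE gives the symbol Pcdha11 to a pair of genes, told apart by identifier. Pcdh11x and Pcdh19 on chromosome X were outside the set. Named were all non-clustered genes, the end and C-type genes of each cluster, clustered genes where the number of libraries changed, the nearest genes, and listed genes inside in at least 7 libraries. Fat3, Cyfip1, Ctcf and Smchd1 were named after their values were seen. The members and lists were chosen with earlier results of these data known.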

Additional observations from a re-analysis of the deposited data

How the results depend on the processing

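The number of non-clustered genes in a LAD in at least 50% of the libraries was 6. It fell to 4 with the intersect of the mice of a time point, counted over the 7 time points. The number in a LAD in all libraries was 3, and 4 in the libraries with bins under 20 kb. Both numbers stayed within 1.5 times the value given under every alternative run, and no result reversed. The difference between the non-clustered and clustered shares was 45 to 64.3 percentage points over the alternatives and 50 to 62.5 when mice were left out. The 36 clustered genes found in a LAD in at least 1 library became 0 with LADs of at least 1 Mb, 0 with the intersect of the mice of a time point, and 0 in the libraries with no LAD over the clusters, the last chosen after seeing the data, as were the other transcript starts of Pcdh15. With LADs of at least 1 Mb, 40 genes were gained and 9 lost from CT0 to CT12, beside 72 and 25 with all LADs. From CT12 to CT30, 0 protocadherin genes were gained when at least 50% or any base pair of the gene body counted. With 1 mouse per time point, the genes gained and lost were 325 to 745 and 255 to 462 from NS to CT0, 498 to 986 and 242 to 367 from CT0 to CT12, and 116 to 453 and 911 to 960 from CT12 to CT30, as a change in 1 mouse then suffices. The protocadherin genes gained and lost were then 0 to 4 and 0 from NS to CT0, 0 to 37 and 0 to 2 from CT0 to CT12, and 1 and 2 to 39 from CT12 to CT30. The exact permutation test over time points gave 0 genes after adjustment in every setting. Unadjusted, it gave 184 genes with 0.5 Mb around the start site, 1247 with the signed log2 distance and 137 to 532 without single libraries (352 in all). With the signed log2 distance the 1 protocadherin gene below 0.05 was Pcdh17 (exact permutation p = 0.00645), and Pcdh20 was at 0.062. Pcdh20 was no longer below 0.05 unadjusted without 1 of the CT6 or CT30 libraries. It stayed below without 1 of the CT0, CT12, CT18 or CT24 libraries. The count of protocadherin genes below 0.05 was 0 with 0.5 Mb around the start site and with LADs of at least 1 Mb. It was also 0 with NS as a seventh time point. Replicate numbers were not taken as pairs, since the study's methods do not describe them as a block. The deviations of same-numbered libraries correlated over 0.1 in 8 of 21 pairs of time points (median 0.0205, range -0.102 to 0.48). Among the pairs without NS, this held for 4 of 15. The highest values were between NS, CT0 and CT6 (0.337 to 0.48), where replicate 1 had bins of 61, 47 and 35 kb and replicate 2 of 4, 4 and 11 kb. With the replicate block 0 protocadherin genes were below 0.05 unadjusted and 350 of all genes. The causes were not tested. Read depth is unknown, and a border is known only to the bin size, 4 to 61 kb.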

Other observations

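The X-linked protocadherin genes, which the set left out, were never in a LAD at their start site. Pcdh11x was outside in all 14 libraries, of which 10 had a LAD on chromosome X, and its gene body was touched by a LAD in 2 libraries. Its start site was 4.74 kb from a LAD at the nearest and 19.4 Mb at the median of the libraries with one. Pcdh19, an adhesion protein mutated in an epilepsy of infancy, was outside in all libraries and 471 kb from a LAD at the nearest.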
